A study of Homo sapiens with 8 samples.

Results

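The 10 genes described here encode enzymes that modify collagen: the lysyl oxidases LOX, LOXL1, LOXL2, LOXL3 and LOXL4, the prolyl 4-hydroxylase alpha subunits P4HA1, P4HA2 and P4HA3, and the lysyl hydroxylases PLOD1 and PLOD2. They were taken by symbol from the 58688 gene IDs of the count files, and all 10 were found. The set was assembled with results of these data known, because LOXL4 was among the genes that fell most when ABL1 and ABL2 were knocked down together. LOXL4 was therefore selected on that contrast, and its values there are a description with no test. The knockdowns of ABL1 alone and of ABL2 alone share the control library of that contrast, so LOXL4 is described there in the same way.

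Collagen chains are hydroxylated inside the endoplasmic reticulum before they fold into a triple helix. Prolyl 4-hydroxylases act on prolines and give the helix its thermal stability, while lysyl hydroxylases act on lysines, some of which later take part in cross-links. Outside the cell, lysyl oxidases use copper to oxidise lysines and hydroxylysines of collagen and elastin into aldehydes, which then cross-link the fibres. Hydroxylases of both kinds need iron, 2-oxoglutarate, oxygen and ascorbate. LOX, P4HA1 and PLOD2 are known targets of hypoxia-inducible factors, and cross-linked collagen and LOX have long been studied in breast cancer metastasis.

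RNA was sequenced from LM2, a derivative of the human triple-negative breast cancer line MDA-MB-231 that spreads to the lung. In the first experiment, 2 libraries came from cells given the solvent DMSO and 2 from cells given 1 µM Ponatinib, an inhibitor of ABL and several other tyrosine kinases, for 6 h. In the second, LM2 cells that had taken up lentiviral short hairpin RNA (shRNA) and survived puromycin gave 1 library each for a scrambled hairpin (shCtrl), for ABL1 shRNA, for ABL2 shRNA and for both hairpins together (ABL1/ABL2 shRNA). The study asked whether loss of ABL kinases alters expression as Ponatinib does. Each target gene had 1 hairpin, so the response to the target and to that hairpin cannot be told apart. No label says that the 2 libraries of a group came from separate cultures, so p-values measure the spread between these libraries, which may be technical.

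Between 7568934 and 13010896 counts fell on genes in the 8 libraries, and 3 counts, the limit that a count of 0 allows, equalled 0.231 to 0.396 CPM, a count scaled by the total of its library. ABL1 fell to 72.6 CPM with ABL1 shRNA and 110.6 CPM with both hairpins, from 185.9 CPM in shCtrl. ABL2 fell to 94.5 CPM with ABL2 shRNA and 149.4 CPM with both hairpins, from 231.3 CPM in shCtrl. In the first experiment ABL2 was at 329.1 and 300.7 CPM in DMSO and lower with Ponatinib, at 149.2 and 171.8 CPM. ABL1 was at 162.6 and 160.0 CPM in DMSO and at 184.6 and 196.6 CPM with Ponatinib. A header cell in the shCtrl file reads as ABL1 shRNA and that of the ABL1 shRNA file as the control. The ABL1 counts go with the sample labels, which were used. The libraries of both experiments held all 4 markers looked for in LM2 (VIM, CD44, AXL and KRT18), and of 5 genes looked for as low or absent, PGR was at 0 in all 8. ESR1 did not exceed 0.87 CPM and CDH1 1.77 CPM, while EPCAM was at 5.08 to 12.0 CPM and ERBB2 at 52.7 to 68.0 CPM. Of 8 fibroblast markers, DCN, LUM, PDGFRA, THY1 and FAP did not exceed 0.603 CPM in any library, COL3A1 reached 3.62 CPM, PDGFRB was at 1.48 to 8.51 CPM and COL1A1 at 61.3 to 398.2 CPM.

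Some libraries stood apart. A total of 68 genes had at least 100 counts in each DMSO and Ponatinib library and 0 in each shRNA library, so the comparisons below were made within an experiment. Among the shRNA libraries, shCtrl differed from all 3 knockdowns past 2-fold in the same direction at 258 genes of 15194, LOXL4 among them. The corresponding numbers were 62 for ABL1 shRNA, 101 for ABL2 shRNA and 26 for ABL1/ABL2 shRNA. Every knockdown ratio below has shCtrl as its denominator, and ratios between knockdowns, which leave shCtrl out, are given beside the ratios of members that moved most.

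The members differed widely in level. LOXL2 had the highest CPM in each library, with 230.6 to 254.6 CPM in the DMSO and Ponatinib libraries and 400.6 to 508.5 CPM in the shRNA libraries. P4HA3 had 1 to 9 counts per library, and LOXL3 had 7 to 18. The plot of all members by library puts LOXL4 at 7.04 CPM in a DMSO library and 175.0 CPM in shCtrl, libraries of separate experiments.

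**Figure D1:**
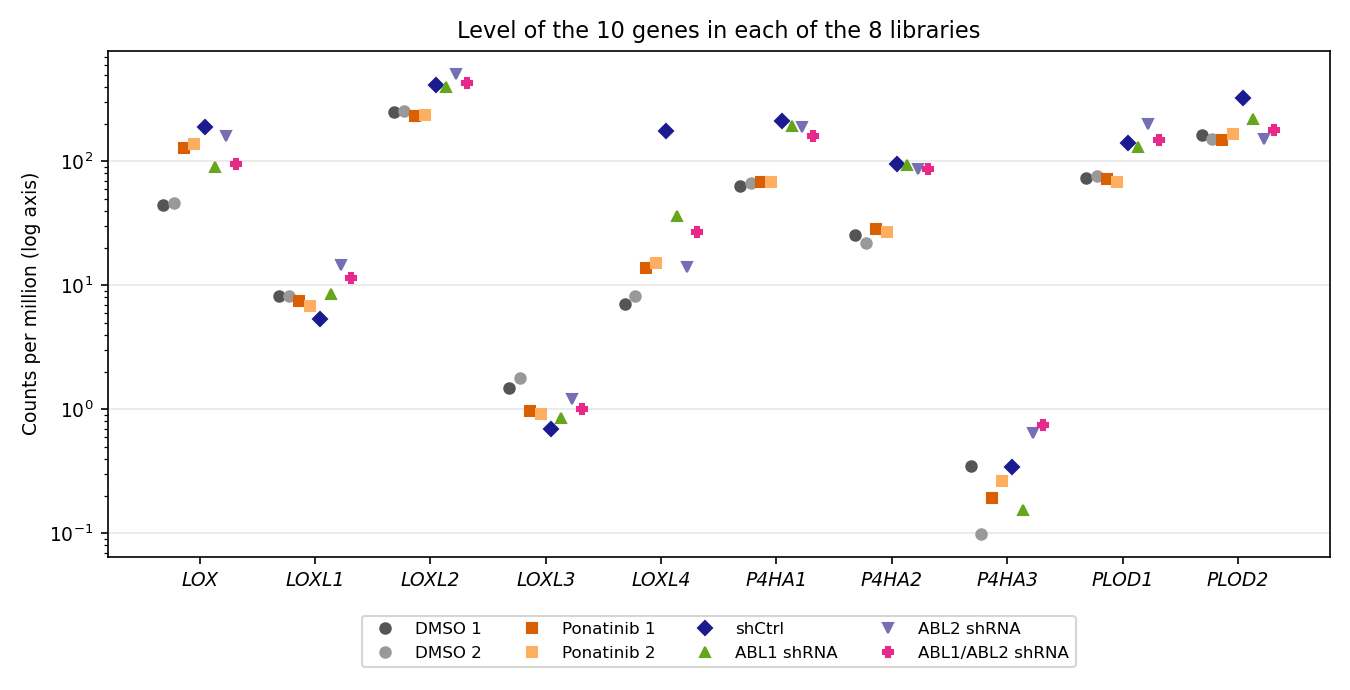
Level of each of the 10 genes in each of the 8 libraries, in CPM of the counts on genes, on a log axis; each point is 1 library. LOXL4 lies at 7.04 and 8.16 CPM in DMSO, 13.8 and 15.2 CPM with Ponatinib, and 175.0 CPM in shCtrl against 14.1 to 36.1 CPM in the 3 knockdowns.

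To compare genes with each other, counts were also divided by the length of the canonical transcript, giving CPM per kilobase (RPKM). On that scale LOXL2 was again the first member in all libraries, at 66.9 and 68.4 RPKM in DMSO and 111 RPKM in shCtrl. PLOD2 came next in DMSO, at 43.7 and 40.5 RPKM. PLOD1, at 24.5 and 25.4 RPKM, lay slightly above P4HA1, at 23.2 and 24.3 RPKM, in both DMSO libraries. The gap between these genes was of about the size of the difference between the libraries. The order below LOXL2 depends on the length used. With the union of all annotated exons, PLOD2 moved from rank 2 to rank 4 in DMSO and P4HA1 from rank 4 to rank 2.

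LOX, the founding lysyl oxidase, lies on the minus strand of chromosome 5 (GRCh38, 122063195 to 122078413). LOXL4, a secreted family member with scavenger receptor domains, lies on the minus strand of chromosome 10 (98247690 to 98268194). PLOD2, whose enzyme hydroxylates lysines in the telopeptides of collagen, lies on the minus strand of chromosome 3 (146035139 to 146163725). The 250 bases before the most upstream RefSeq start site of these members (GRCh38.p14) are shown. LOX has 3 such start sites, and windows before the others were not searched. The LOX window lies partly, and the PLOD2 window wholly, inside the gene spans given above. These members are shown because LOX and LOXL4 were the members called with Ponatinib and all of them were past 2-fold lower in at least 1 knockdown. Capitals mark ACGTG on either strand, the core of the hypoxia response element. The windows, all read 5′ to 3′ on the minus strand, are chr5:122078260-122078509 for LOX, chr10:98268195-98268444 for LOXL4 and chr3:146161185-146161434 for PLOD2.
LOX promoter: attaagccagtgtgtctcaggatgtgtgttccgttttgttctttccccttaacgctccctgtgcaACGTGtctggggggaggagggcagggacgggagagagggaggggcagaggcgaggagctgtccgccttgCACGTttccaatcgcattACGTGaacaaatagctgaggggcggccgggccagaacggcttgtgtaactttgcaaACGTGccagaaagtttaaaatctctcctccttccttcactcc
LOXL4 promoter: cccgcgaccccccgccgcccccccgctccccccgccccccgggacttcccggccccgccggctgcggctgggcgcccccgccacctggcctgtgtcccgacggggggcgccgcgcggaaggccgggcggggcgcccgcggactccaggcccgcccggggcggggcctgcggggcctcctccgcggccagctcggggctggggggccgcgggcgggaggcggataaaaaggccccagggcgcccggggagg
PLOD2 promoter: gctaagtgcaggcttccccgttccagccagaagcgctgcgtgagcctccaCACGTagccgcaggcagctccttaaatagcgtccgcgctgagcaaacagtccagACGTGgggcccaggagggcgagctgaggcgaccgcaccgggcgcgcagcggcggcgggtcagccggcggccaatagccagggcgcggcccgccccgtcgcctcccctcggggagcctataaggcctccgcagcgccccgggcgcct

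The LOX window held ACGTG 4 times, at 185, 116, 98 and 42 bases before the start, with no overlap between them. PLOD2 held it 2 times, at 200 and 146 bases, and P4HA1 held it 1 time, at 86 bases. No match lay in the windows of LOXL4, LOXL1, LOXL3, P4HA2 and PLOD1, and LOXL2 and P4HA3 were not searched. Among 27305 promoters of the same length, 18.6% held the motif at least 1 time, 7.64% at least 2 times and 0.710% at least 4 times, where the palindrome CACGTG counts on both strands. The AP-1 motif TGANTCA, which JUN binds, was in none of the 8 windows searched and in 6.57% of all promoters. The TEAD motif GGAATG was in LOXL3 only, 2 times, against 12.0% of all promoters with at least 1. The LOXL4 window was 86.4% G and C, against 55.2% for LOX and 72.4% for PLOD2. These matches describe letters in a window and are not binding sites.

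With Ponatinib, 2 members rose, LOX by 2.85-fold and LOXL4 by 1.85-fold, and none of the other 7 tested members passed the threshold in either direction. Calls were made at an adjusted p under 0.05, from edgeR's quasi-likelihood F test and Benjamini-Hochberg adjustment over 16031 genes. The same call was made for 15% of all tested genes upward and 15.7% downward. Thus 2 of 9 members upward lay near the share of all genes, and 0 of 9 downward lay below it. P4HA3 was filtered out for low counts and was not tested. The median log2 fold change of the 9 tested members was -0.05, and that of all genes was -0.00. The rule of the study's methods, a fold over 2 and an unadjusted p under 0.05, called LOX alone upward, against 3.19% of all genes.

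LOX stood at 44.2 and 46.0 CPM in the DMSO libraries and at 128.2 and 137.0 CPM in the Ponatinib libraries. The lower Ponatinib library thus held well over the higher DMSO library, and the groups did not overlap. That alone does not mark a called gene, since LOXL1, LOXL2, LOXL3, P4HA2 and PLOD1, which were not called, did not overlap either. The share of all genes without overlap was not computed. After TMM normalization the means were 45.9 ± 1.23 CPM in DMSO and 130.9 ± 5.75 CPM with Ponatinib (SD, n = 2 each). The log2 fold change was 1.51 (SE 0.07, edgeR adjusted p = 9.0e-10), which was the 174th largest rise of 16031 genes. In bulk RNA, more cells that transcribe LOX and more LOX RNA per cell cannot be told apart, and this holds for each result here.

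LOXL4 was at 7.04 and 8.16 CPM in DMSO and at 13.8 and 15.2 CPM with Ponatinib, from 81 to 144 counts per library. These low levels did not overlap between the groups. The TMM-normalized means were 7.74 ± 0.80 and 14.3 ± 0.90 CPM (SD, n = 2 in either group). On the log2 scale the rise was 0.89 (SE 0.15, edgeR adjusted p = 0.00047). LOXL4 was chosen on the double knockdown, and the Ponatinib contrast shares no library with it. Both fibroblast markers with enough counts to be tested also rose with Ponatinib, COL1A1 by 0.34 (adjusted p = 0.0033) and PDGFRB by 1.55 (adjusted p = 0.00046) on the log2 scale. The summed level of the 8 markers was 64.8 and 64.1 CPM in DMSO and 90.4 and 83.4 CPM with Ponatinib, and without COL1A1 it was 1.82 and 2.79 CPM against 5.48 and 6.87 CPM. Their part in the rises of LOX and LOXL4 was not tested.

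The remaining lysyl oxidases were lower with Ponatinib but did not pass. LOXL2, an oxidase that deaminates collagen IV and is also found in the nucleus (chromosome 8, 23296897 to 23425328), stood at 248.8 and 254.6 CPM in DMSO and at 230.6 and 236.0 CPM with Ponatinib. Its groups did not overlap, yet the difference was small, with a log2 fold change of -0.15 (SE 0.06, edgeR adjusted p = 0.063). Without Ponatinib replicate 2 the log2 fold change was -0.17 with an adjusted p of 0.0057, and in a fit of all 8 libraries it was -0.17 with an adjusted p of 0.048. Over all 10 alternatives the adjusted p ran from 0.0057 to 0.41.

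LOXL1, which binds elastic fibres (chromosome 15, 73925989 to 73952137), was at 8.17 and 8.16 CPM in DMSO and at 7.50 and 6.87 CPM with Ponatinib, with an edgeR adjusted p of 0.36. LOXL3, needed for collagen in cartilage and muscle attachments (chromosome 2, 74532258 to 74555690), had 17 and 18 counts in DMSO and 10 and 7 with Ponatinib. Its log2 fold change of -0.82 carried an SE of 0.39 and an adjusted p of 0.13. HTRA2 on the opposite strand overlaps 20.7% of the LOXL3 exon bases, and the strand setting of the counting is not known, so even these few counts may not all be from LOXL3.

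**Figure D2:**
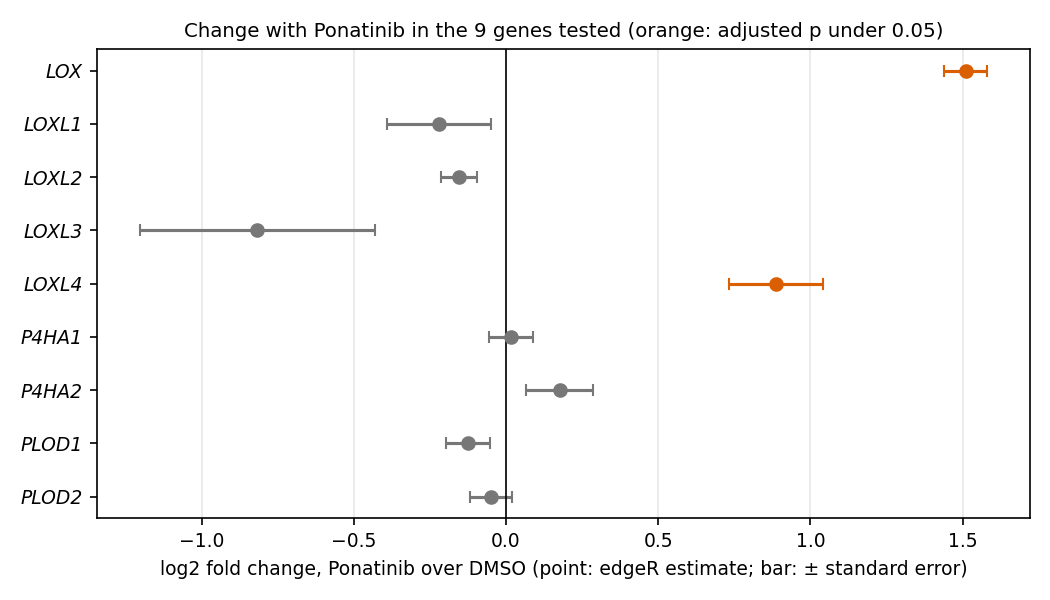
Log2 fold change, Ponatinib over DMSO, of the 9 members tested; points are edgeR estimates and bars are ± 1 standard error (2 libraries a group). LOX (1.51) and LOXL4 (0.89), in orange, are the members with an adjusted p under 0.05, and the hydroxylase genes lie between -0.12 and 0.18.

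The genes of the prolyl 4-hydroxylase alpha subunits did not pass the test with Ponatinib. P4HA1, the main catalytic subunit in many cells (chromosome 10, 73007217 to 73096974), was at 63.5 and 66.7 CPM in DMSO and at 67.8 and 67.9 CPM with Ponatinib. Its log2 fold change was 0.02 (SE 0.07, edgeR adjusted p = 0.89). P4HA2, an alternative catalytic subunit (chromosome 5, 132190147 to 132295315), was at 25.6 and 21.8 CPM in DMSO and at 28.4 and 27.0 CPM with Ponatinib. The difference of 0.18 on the log2 scale (SE 0.11, edgeR adjusted p = 0.25) did not pass. P4HA3, the third alpha subunit gene (chromosome 11, 74235801 to 74311640), had 4 and 1 counts in DMSO and 2 and 2 with Ponatinib, at or near the limit of 3 counts.

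Both lysyl hydroxylase members missed the threshold as well. PLOD3, a further lysyl hydroxylase gene, is not a member and was counted among the partners below. It stood at 89.1 and 89.8 CPM in DMSO and at 79.4 and 85.9 CPM with Ponatinib. Its log2 fold change was -0.16 (SE 0.07, edgeR adjusted p = 0.091). PLOD1, which hydroxylates lysines in the helix (chromosome 1, 11934205 to 11975538), was at 72.9 and 75.6 CPM in DMSO and at 72.4 and 67.8 CPM with Ponatinib, with a log2 fold change of -0.12 (SE 0.07, edgeR adjusted p = 0.22). PLOD2 was at 163.9 and 151.8 CPM in DMSO and at 149.5 and 166.1 CPM with Ponatinib. Its groups overlapped, and the log2 fold change was -0.05 (SE 0.07, edgeR adjusted p = 0.64).

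In the knockdowns LOXL4 was the member that moved most, to 20.3% of shCtrl when ABL1 was targeted, 7.85% when ABL2 was and 15.0% when both were. LOX was at less than 50% of shCtrl where ABL1 shRNA was present, PLOD2 was so with ABL2 shRNA alone, and LOXL1 was higher in all 3 knockdowns. LOXL2, PLOD1, P4HA1 and P4HA2 stayed within 1.5-fold of shCtrl. Each group is 1 library with no replicate check, so the values are a description without a test, and the intervals below are 95% intervals of counting error only. A fit of all 8 libraries can give p-values, but its spread would be that of the DMSO and Ponatinib pairs. The ratios are of TMM-normalized CPM, and the 3 comparisons share the shCtrl library.

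With ABL1 shRNA, LOXL4 and LOX were past 2-fold lower, 2 of 9 members, against 3.17% of all 15194 genes, and no member was past 2-fold higher, against 3.56%. With ABL2 shRNA, LOXL4 and PLOD2 were past 2-fold lower, against 2.21% of genes, and LOXL1 was past 2-fold higher, against 3.53%. With both hairpins, LOXL4 and LOX were past 2-fold lower, against 2.27% of genes, and LOXL1 was past 2-fold higher, against 3.34%. LOXL4 is in every one of these counts and was selected for the last of them. The median log2 ratio of the 9 members was -0.11, -0.19 and -0.18 in that order, and that of all genes was 0.00, -0.01 and 0.00.

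LOXL4 had 2032 counts in shCtrl and 470, 176 and 326 in the ABL1, ABL2 and double knockdowns, or 175.0, 36.1, 14.1 and 27.1 CPM. The shCtrl library thus stood far above the others. The log2 ratios to shCtrl were -2.30 (-2.45 to -2.15), -3.67 (-3.90 to -3.45) and -2.73 (-2.91 to -2.56). Among 15194 genes ordered from the lowest ratio, LOXL4 was number 21, 4 and 10. Without shCtrl, LOXL4 was 2.59-fold higher with ABL1 shRNA than with ABL2 shRNA (2.18 to 3.10). With ABL2 shRNA it was at 0.521 of the level with both hairpins (0.431 to 0.628). The double knockdown therefore lay between the single knockdowns.

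LOX had 2197 counts in shCtrl and 1169, 2003 and 1144 in the knockdowns in that order, or 189.2, 89.8, 160.8 and 95.2 CPM. The libraries fell into a lower pair, both with ABL1 shRNA, and a higher pair without it. The log2 ratios to shCtrl were -1.10 (-1.20 to -0.99), -0.28 (-0.37 to -0.19) and -1.04 (-1.14 to -0.93). The ratio between ABL1 shRNA and both hairpins was 0.958, with an interval of 0.883 to 1.04 that includes 1. ABL2 shRNA was 1.69-fold above the double knockdown (1.57 to 1.82), a difference that does not involve shCtrl. With plain CPM in place of TMM, the ratio for both hairpins was -0.99, which is no longer past 2-fold.

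LOXL1 was low throughout, with 62 counts in shCtrl and 110, 181 and 138 counts in the ABL1, ABL2 and double knockdowns, or 5.34, 8.45, 14.5 and 11.5 CPM. All 3 knockdowns were above shCtrl, by 1.55-fold (1.13 to 2.16), 2.63-fold (1.97 to 3.58) and 2.08-fold (1.53 to 2.86). The ABL2 and double knockdowns differed from each other by only 1.27-fold (1.01 to 1.59). LOXL1-AS1 on the opposite strand overlaps 9.2% of the LOXL1 exon bases. The strand setting of the counting is not known, so some of these counts may not be from LOXL1. LOXL2 was at 413.5, 400.6, 508.5 and 426.2 CPM in the same order of libraries, and the ratios to shCtrl were 0.954 (0.917 to 0.992), 1.19 (1.15 to 1.24) and 0.999 (0.960 to 1.04). LOXL3 had 8, 11, 15 and 12 counts, and its intervals all spanned equality.

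**Figure D3:**
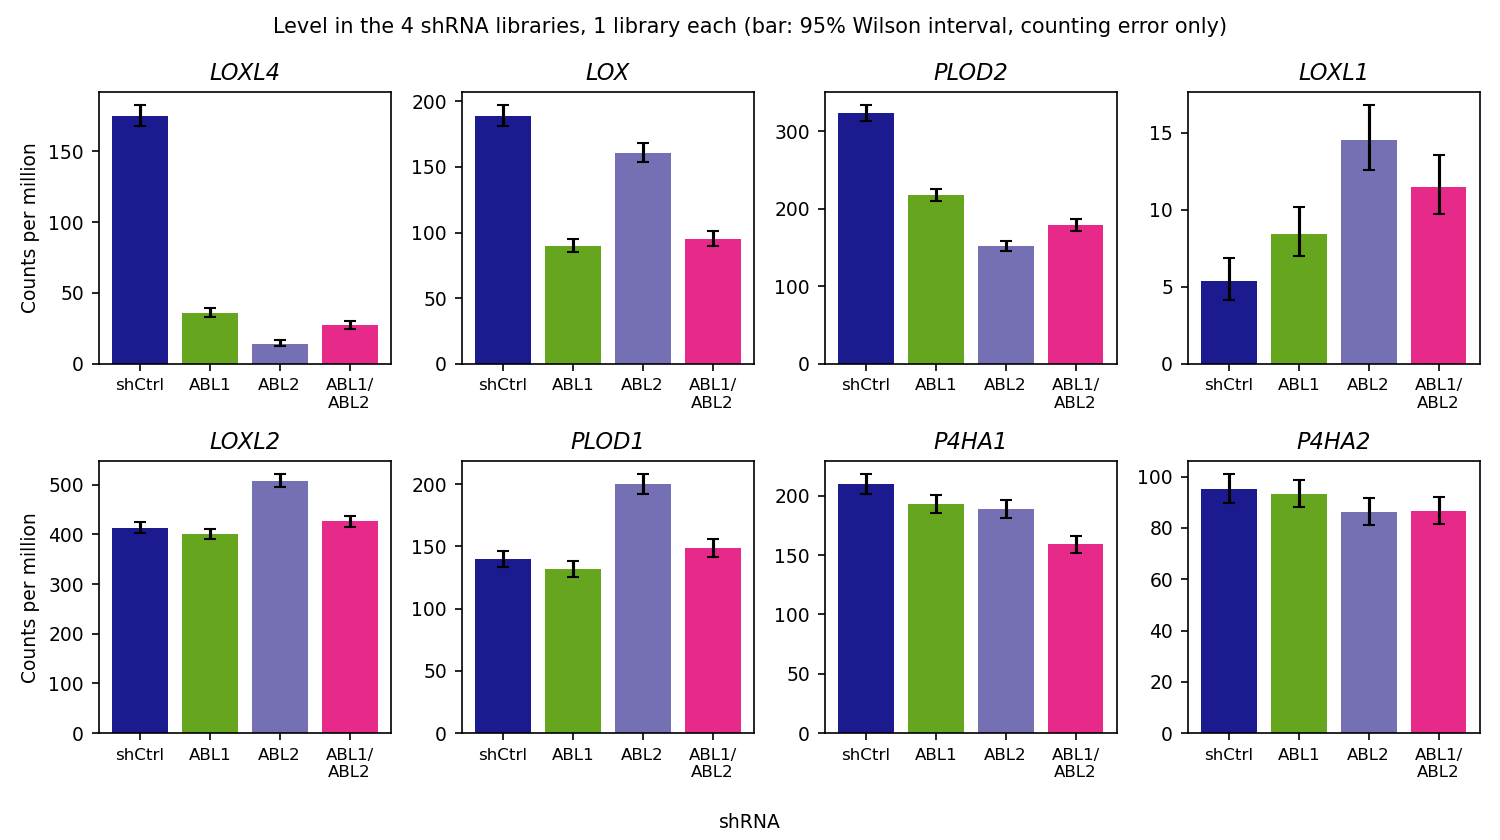
Level of 8 members in the 4 shRNA libraries, 1 library each, in CPM; axes start at 0 and bars mark 95% Wilson intervals of counting error only. LOXL4 falls from 175.0 CPM in shCtrl to 14.1 to 36.1 CPM, LOX separates libraries with ABL1 shRNA (89.8 and 95.2 CPM) from those without it, and PLOD2 is lowest with ABL2 shRNA (151.7 CPM).

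Among the prolyl 4-hydroxylases, P4HA1 stood at 209.6 CPM in shCtrl and at 193.1, 188.8 and 159.0 CPM in the ABL1, ABL2 and double knockdowns. The double knockdown was the lowest, at 0.735 of shCtrl (0.692 to 0.781). P4HA1 with both hairpins was also below ABL1 shRNA, which was 1.23-fold higher (1.16 to 1.31), and below ABL2 shRNA, which was 1.19-fold higher (1.12 to 1.26). P4HA2 varied little, from 95.2 CPM in shCtrl to 93.3, 86.2 and 86.7 CPM in the knockdowns. P4HA3 had 4, 2, 8 and 9 counts, too few for any statement on a difference from shCtrl.

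PLOD2 had 323.4 CPM in shCtrl and 217.4, 151.7 and 178.4 CPM in the ABL1, ABL2 and double knockdowns. All 3 knockdowns were below shCtrl, with ratios of 0.662 (0.630 to 0.695), 0.455 (0.430 to 0.481) and 0.535 (0.507 to 0.564). The order of the knockdowns was the same as for LOXL4. PLOD2 with ABL1 shRNA was 1.45-fold that with ABL2 shRNA (1.37 to 1.54), and ABL2 shRNA was at 0.851 of both hairpins (0.800 to 0.906). PLOD1 had 139.6 CPM in shCtrl and 131.6, 199.8 and 148.5 CPM in the knockdowns. Here ABL2 shRNA was the highest, at 1.39-fold of shCtrl (1.30 to 1.48) and 1.35-fold of both hairpins (1.27 to 1.43), while the double knockdown was at 1.03-fold of shCtrl (0.963 to 1.10).

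The makeup of each enzyme family, counting only the members described here, followed from these levels. On the RPKM scale LOXL2 made up 82.1% and 81.7% of the lysyl oxidase sum in DMSO and 65.6% and 64.8% with Ponatinib. LOX made up 10.7% and 10.8% in DMSO and 26.7% and 27.6% with Ponatinib, so the share of LOX was higher and that of LOXL2 lower with Ponatinib. In the shRNA libraries LOXL2 made up 55.7% of the sum in shCtrl and 77.3%, 76.4% and 78.4% in the ABL1, ABL2 and double knockdowns. The level of LOXL2 itself was 413.5 CPM in shCtrl and 400.6, 508.5 and 426.2 CPM in the knockdowns. The sum includes LOXL4, which was selected through its fall from shCtrl, so the shares in these libraries are a description.

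LOXL4 made up 24.4% of the lysyl oxidase sum in shCtrl and 7.21%, 2.20% and 5.17% in the knockdowns. With exon-union lengths its shares were 31.8%, 10.5%, 3.22% and 7.61%, in the same order. By canonical length the lysyl oxidase sum was 199.5 RPKM in shCtrl and 139.2, 178.8 and 146.0 RPKM in the knockdowns. It was 81.4 and 83.7 RPKM in DMSO and 94.5 and 97.8 RPKM with Ponatinib. P4HA1 made up between 74.9% and 83.4% of the prolyl 4-hydroxylase sum in every library, so that balance moved little. With exon-union lengths its range was 85.5% to 90.8%. PLOD2 made up 64.8% of the sum of PLOD1 and PLOD2 in shCtrl and 56.7%, 37.6% and 48.8% in the ABL1, ABL2 and double knockdowns. With exon-union lengths these PLOD2 shares were 45.9%, 37.7%, 21.8% and 30.6%, in the same order.

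**Figure D4:**
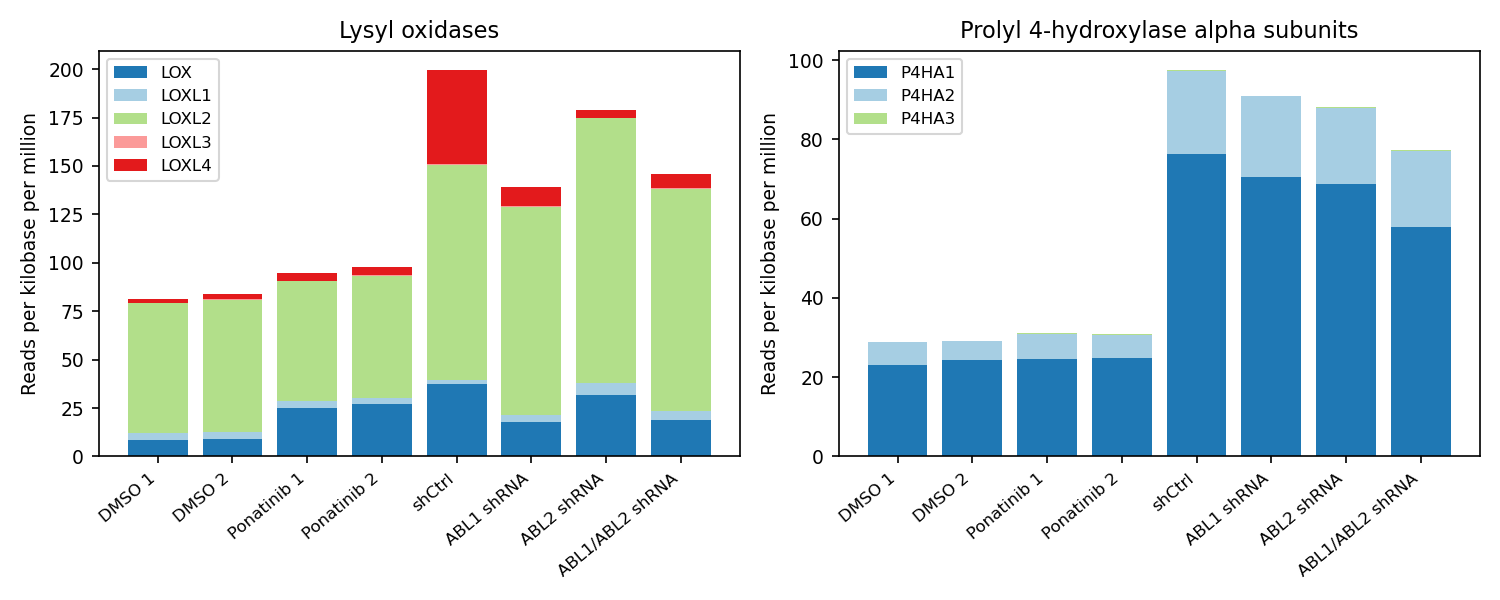
Summed level of the lysyl oxidases (left) and of the prolyl 4-hydroxylase alpha subunits (right) in each library, in RPKM by canonical transcript length, stacked by gene. LOXL2 is the largest lysyl oxidase segment in every library, the LOX segment is larger with Ponatinib than in DMSO, and LOXL4 makes up 24.4% of the shCtrl bar.

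Genes that work with these enzymes were taken from hand-written lists. With Ponatinib, 1 of 15 partners in collagen folding and modification rose and 3 fell by edgeR's adjusted p under 0.05, none of them past 1.5-fold, against 15% and 15.7% of all tested genes. P4HB, the beta subunit that the collagen prolyl 4-hydroxylases share, was not among them, with a log2 fold change of -0.03 (adjusted p = 0.70). Of 9 tested substrates, 3 rose and 1 fell, and COL5A2, a minor fibrillar collagen chain, fell by 0.89 on the log2 scale (adjusted p = 0.023). Among 7 tested genes of procollagen processing 2 rose and none fell, and among 7 tested genes of cofactor supply 1 rose and 2 fell. SLC31A1, the copper importer, rose by 0.59 on the log2 scale and was past 1.5-fold. The medians of these 4 lists lay between -0.11 and -0.04, against -0.00 for all genes.

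Of 18 tested genes of the hypoxia response, 6 rose and 4 fell with Ponatinib, against 15% and 15.7% of all tested genes, and the list's median log2 fold change was 0.05. The largest rises were those of DDIT4, an inhibitor of mTORC1 (2.90), EGLN3, an oxygen-sensing prolyl hydroxylase (1.08), EPAS1 (0.82) and HIF1A (0.66), as log2 fold changes. HK2 and PFKFB3, which drive glycolysis, fell by 1.32 and 0.79 on that scale. The list thus held genes that rose and genes that fell. The members LOX, P4HA1 and PLOD2 gave 1.51, 0.02 and -0.05 in the same contrast. Of 11 genes of the TGF-beta pathway, 1 rose and 3 fell, among them CCN2, a known target of TGF-beta (log2 fold change -2.92), and the receptor TGFBR2 (-0.59).

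In the knockdowns COL1A1, the main chain of type I collagen, was at 398.2 CPM in shCtrl and at 98.8, 228.9 and 140.1 CPM in the ABL1, ABL2 and double knockdowns. It was past 2-fold lower in both libraries with ABL1 shRNA and at 55.8% of shCtrl with ABL2 shRNA, and shCtrl was again the highest library. COL1A1 is also one of the 8 fibroblast markers, whose summed level was 410.5 CPM in shCtrl and 106.5 to 238.5 CPM in the knockdowns. Without COL1A1 that sum was 12.3 CPM in shCtrl and 7.41 to 9.63 CPM in the knockdowns, where PDGFRB held 6.84 to 8.51 CPM. The part of these markers in the knockdown values was not tested.

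Of 11 substrates, 3, 2 and 3 were past 2-fold lower in the ABL1, ABL2 and double knockdowns and none was higher, against 3.17%, 2.21% and 2.27% of all genes lower. The shares higher were 3.56%, 3.53% and 3.34%, and these apply to the other lists below as well. COL12A1 was one of the 2 lower with ABL2 shRNA, at 39.6% of shCtrl. COL3A1 was counted as lower in every knockdown, with 3.62 CPM in shCtrl and 0.231, 0.562 and 0 CPM in the knockdowns. It passed the filter of 40 counts only through shCtrl, so its falls are no support for a lower level. COL1A2, counted with ABL1 shRNA and with both hairpins, did not exceed 1.55 CPM in any library. The substrate counts thus rest in part on genes near the floor. Of 15 partners, FKBP14, a foldase of the endoplasmic reticulum, was past 2-fold higher with ABL1 shRNA and with both hairpins, and P3H2, a prolyl 3-hydroxylase, was past 2-fold lower with ABL1 shRNA alone. P3H4 was past 2-fold higher with ABL2 shRNA and with both, and COLGALT2, a collagen galactosyltransferase, with ABL2 shRNA.

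Among 19 hypoxia genes none was past 2-fold with ABL1 shRNA. CA9 and CA12, carbonic anhydrases of the cell surface, were at 310% and 268% of shCtrl with ABL2 shRNA. ADM, a vasodilator peptide, was at 43.9% of shCtrl with ABL2 shRNA and 45.1% with both. Of 8 procollagen processing genes, ADAMTS14 (526%) and ADAMTS3 (235%) were past 2-fold higher with ABL2 shRNA and PCOLCE (220%) with both hairpins. Of 8 cofactor genes, TFRC, the transferrin receptor for iron uptake, was past 2-fold lower with ABL2 shRNA, at 49.7%. Of 11 TGF-beta genes, the ligand TGFB2 was past 2-fold lower in all 3 knockdowns (37.7%, 37.1% and 31.6%) and TGFBR2 was past 2-fold higher with ABL2 shRNA (227%).

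The genes closest to LOXL4 over the 4 log2 ratios (Ponatinib over DMSO and each knockdown over shCtrl) were searched among 10112 genes by Euclidean distance. They were MMP2 (distance 1.88), CEBPD (2.18), FILIP1L (2.22), PEG10 (2.26) and C1S (2.29), on the log2 scale. MMP2, a gelatinase that cleaves collagen IV and denatured collagen, had log2 ratios of 0.51 with Ponatinib and of -2.13, -1.93 and -2.13 in the ABL1, ABL2 and double knockdowns. None of the 5 came within 1.5 of LOXL4, and 3 of the 4 ratios share the shCtrl library, so the likeness rests in part on that library.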

How the data were processed

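Sequencing libraries of LM2 cells (2 DMSO, 2 Ponatinib and 4 shRNA) were analysed from the raw counts per gene that the authors deposited, 1 file per sample. According to the study's methods, reads were aligned to hg38 with Bowtie/TopHat and counted, and the submitters' processing notes also name FastQC and HTSeq 0.6.0. The annotation and the strand setting are not given in the sources used here. Summary rows, present in the shRNA files only (15.7% to 16.0% of their counts), were left out.

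Members and lists were chosen with earlier results of these data known. Ponatinib and DMSO were compared with edgeR 4.0.16 in R 4.3.3 (filterByExpr, TMM normalization, quasi-likelihood test, two-sided, Benjamini-Hochberg adjustment). Knockdowns have 1 library each, so log2 ratios of TMM-normalized CPM (prior count 0.5, at least 40 counts summed over the 4 shRNA libraries) are given with exact 95% counting intervals and no test. PCR reads without molecular identifiers are not independent molecules, so intervals and limits of 3 counts cover counting error only. RPKM values used canonical transcripts of GENCODE on GRCh38, and promoters of 8 members came from RefSeq. P4HB and PLOD3 were added after their values were seen, beside the 5 genes of at least 10 mean CPM nearest to LOXL4. Other genes named from each list, at most 6 by size of change, passed the threshold and 1.5-fold with Ponatinib, or 2-fold in a knockdown. A gene that this rule would name is not reported here.

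Replicate numbers did not pair the samples (Pearson r = 0.03 between the deviations of like-numbered libraries over 14715 genes, which are not independent). The pairs differed by more than sampling noise (chi-square per degree of freedom 1.44 and 3.12). Scripts were tested on simulated data. Alternatives were DESeq2 1.42.0 (size factors and Wald test), filters on low counts, a prior count of 2, plain CPM, a replicate block, a fit of all 8 samples, the study's own threshold and leaving out each DMSO or Ponatinib library.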

Additional observations from a re-analysis of the deposited data

How the results depend on the processing

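Of the 9 members tested with Ponatinib, LOX (log2 fold change 1.46 to 1.57) and LOXL4 (0.78 to 0.99) kept their direction and passed the adjusted threshold under all 10 alternatives. The study's own threshold, applied to the members after the data were seen, called 1 member and 878 genes in place of 2 and 4917. LOXL4 dropped out because it was under 2-fold. The paper reports fewer genes changed by Ponatinib with that threshold, and the reason for the difference was not tested. DESeq2's Wald test called 2809 genes, and the cause was not tested. Leaving out 1 replicate gave 2800 to 5744 genes and 2 to 3 members, with 2800 without DMSO replicate 1 and 3242 without DMSO replicate 2, where 1 library stands for a group and is assumed to vary like the other. The third member was LOXL2, without Ponatinib replicate 2 and in the fit of all 8 samples. Values near 0 turned sign. P4HA1 was -0.00052 in the fit of all 8 samples and -0.019 to 0.051 with 1 replicate left out, and PLOD2 was -0.12 to 0.034 with 1 left out. With the replicate block, 4984 genes and 2 members were called, so it changed no call of a member.

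For the knockdowns, 1023, 872 and 853 genes past 2-fold (ABL1, ABL2, both) became 8310, 8045 and 8123 with no filter on low counts, which brings in genes of a few counts, and 556 (ABL2) and 553 (both) in a fit of all 8 samples, which adds a test that takes its spread from the 2 replicated groups. No member's ratio moved beyond its counting interval under the alternatives run. Members past 2-fold became 3 with ABL1 shRNA without the filter, as P4HA3 entered with 2 counts against 4, and 2 with both hairpins under plain CPM, as LOX dropped out. Depth limits LOXL3 and P4HA3, which had at most 18 and 9 counts in any library.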

Other observations

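Levels set across the 2 experiments differ in more than the hairpin, and treatment and experiment cannot be told apart. LOXL4 was at 175.0 CPM in shCtrl and at a mean of 7.60 CPM in DMSO, a 23.0-fold difference that ranked 14 of 14108 genes. LOXL4 was selected through its fall from shCtrl, so its rank here is a description with no test. With ABL2 shRNA it was at 1.86-fold of the DMSO mean. LOX was 4.20-fold, P4HA2 4.01-fold, P4HA1 3.22-fold and PLOD2 2.05-fold higher in shCtrl than in DMSO. Counting LOXL4, which was selected through shCtrl, 5 of 9 members were over 2-fold, against 10.7% of all genes. Among hypoxia targets 12 of 18 were over 2-fold (median 3.31-fold), and among the partners in collagen folding 1 of 15 was. Of the substrates, 5 of 9 were over 2-fold (median 2.18-fold), the same number as among the members (median 2.05-fold).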
